A study of Mus musculus with 10 samples.

Results

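The small leucine-rich proteoglycans are secreted proteins of the extracellular matrix, built on a core of leucine-rich repeats. Their genes were taken as the list Dcn, Bgn, Lum, Fmod, Prelp, Ogn, Aspn, Omd, Podn and Kera. Probes were assigned by gene annotation, with no measured value in the rule, but the list was proposed with earlier results of these data known. All 10 genes had a probe, 1 each, among 17991 named genes tested. They were followed in abdominal aorta of male ApoE-/- mice, 14 weeks old, which lack apolipoprotein E and are prone to high cholesterol and atherosclerosis. There were 5 pools (numbered 1, 6, 8, 11 and 12) of 2 mice. The suprarenal segment of a pool lay above the renal arteries and the infrarenal segment below them. Each segment gave 1 single-colour array, so there were 5 infrarenal and 5 suprarenal arrays. Every mouse carried the knockout, and diet, lesion state and wild-type aorta were not analysed here. The labels do not say whether fat and nerve around the vessel were removed.

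These proteins bind collagen fibrils and set their diameter and spacing, and most carry chondroitin, dermatan or keratan sulphate chains. Decorin and biglycan also bind TGF-beta, and biglycan can signal through Toll-like receptors. In arteries they are made mainly by smooth muscle cells and adventitial fibroblasts, and the sulphated chains bind apolipoprotein B lipoproteins. By sequence, decorin (Dcn), biglycan (Bgn) and asporin (Aspn) form class I. Lumican (Lum), fibromodulin (Fmod), PRELP (Prelp), keratocan (Kera) and osteomodulin (Omd) form class II. Osteoglycin (Ogn) belongs to class III, and podocan (Podn) stands in a class of its own.

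Most of these genes lie next to each other in the mouse genome. In the RefSeq gene table of GRCm38.p6, Dcn, Lum and Kera followed each other among protein-coding genes on chromosome 10, with Epyc, a class III member, next. Aspn, Omd and Ogn followed each other on chromosome 13, after the related gene Ecm2. Prelp and Fmod were direct neighbours on chromosome 1, with the class III gene Optc on the other side of Prelp. Bgn, on the X chromosome, and Podn, on chromosome 4, had no other gene of the family beside them.

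The promoter sequences shown are those of both neighbourhoods whose levels, as described further on, were alike across arrays and which the RefSeq promoter table (GRCm38.p6) held. That table matched 8 of the 10 genes by symbol. Each run gives the 250 bases before the annotated transcription start, 5′ to 3′ on the strand of the gene. Capitals mark 3 motifs on either strand. These are the TATA box letters TATAAA, the short SMAD-binding letters CAGAC, and GGGCGG, known as the GC box. The windows are chr1:133921402-133921651 on the minus strand for Prelp and chr1:134037004-134037253 on the plus strand for Fmod. Those of Aspn, Omd and Ogn are chr13:49544193-49544442, chr13:49582212-49582461 and chr13:49607765-49608014, all on the plus strand.
Prelp: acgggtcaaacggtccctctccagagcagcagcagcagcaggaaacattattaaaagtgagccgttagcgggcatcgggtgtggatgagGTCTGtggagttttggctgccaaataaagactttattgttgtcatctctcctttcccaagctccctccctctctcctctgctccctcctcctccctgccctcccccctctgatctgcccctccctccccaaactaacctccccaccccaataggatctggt
Fmod: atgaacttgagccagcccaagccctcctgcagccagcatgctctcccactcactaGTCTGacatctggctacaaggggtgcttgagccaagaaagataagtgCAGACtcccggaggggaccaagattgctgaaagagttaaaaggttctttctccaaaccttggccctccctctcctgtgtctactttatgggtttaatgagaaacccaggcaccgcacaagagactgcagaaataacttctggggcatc
Aspn: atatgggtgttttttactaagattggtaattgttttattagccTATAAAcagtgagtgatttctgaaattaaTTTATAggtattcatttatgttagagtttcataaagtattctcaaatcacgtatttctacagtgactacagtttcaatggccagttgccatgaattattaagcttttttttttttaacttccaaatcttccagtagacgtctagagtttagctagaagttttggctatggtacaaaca
Omd: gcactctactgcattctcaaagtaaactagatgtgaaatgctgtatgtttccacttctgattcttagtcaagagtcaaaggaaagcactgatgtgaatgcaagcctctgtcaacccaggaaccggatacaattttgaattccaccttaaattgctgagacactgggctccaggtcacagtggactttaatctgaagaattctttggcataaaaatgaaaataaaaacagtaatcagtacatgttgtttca
Ogn: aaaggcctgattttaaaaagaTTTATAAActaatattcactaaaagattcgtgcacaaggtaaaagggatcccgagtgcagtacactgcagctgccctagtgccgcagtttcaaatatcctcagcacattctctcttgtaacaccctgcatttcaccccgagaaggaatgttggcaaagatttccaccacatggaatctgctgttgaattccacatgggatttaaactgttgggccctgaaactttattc

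The CAGAC letters occurred 2 times before Fmod, with first bases 195 and 148 before the start, and 1 time before Prelp, at 161. They were not in the windows of Aspn, Omd or Ogn. Of all 32851 promoters in the table, 42.2% held CAGAC on either strand. TATAAA occurred on both strands before Aspn and before Ogn, in Ogn as overlapping matches 229 and 227 bases before the start, and in 12.4% of all promoters. GGGCGG was in none of these 5 windows, in 3 places before Bgn, and in 32.7% of all promoters. These are matches of letters and no sites shown to be bound.

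As deposited, all 10 arrays had a median intensity between 1.001 and 1.003. Levels are given as log2 of the deposited intensity. Smooth muscle markers were present on every array, with a mean over 10 genes between 6.12 and 6.40 in infrarenal and between 6.02 and 6.41 in suprarenal aorta. The targeted gene, Apoe, read -4.14 in infrarenal and -3.58 in suprarenal aorta, among the dimmest 30% of probes. In pool 12 the arrays went against the region labels for the mean of Hox genes of the posterior groups, which rise towards the tail. Of the 12 measured, 8 had positive and 4 had negative differences, infrarenal minus suprarenal, over all pools. Among the dimmest 30% of probes were 3 of them, and 2 reached the lowest value kept, -5.17, on some array. The mean over the 12 genes was -0.19 on the infrarenal and 0.76 on the suprarenal array of pool 12. On the other arrays it lay between 0.48 and 0.73 in infrarenal and between -0.23 and 0.40 in suprarenal aorta. Regional differences of the members and of the related genes are therefore given with and without pool 12. In whole tissue, fewer cells of a type and less RNA per cell cannot be told apart.

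The regional comparison asked whether the family is expressed differently below and above the kidney arteries in the same animals. No member passed the test: by limma with the pool as a block, 0 of 10 had an adjusted p under 0.05, where 0.0% of 36061 probes did. Prelp came nearest, with lower infrarenal values in 5 of 5 pools and a difference of -0.30 ± 0.11 (SE) log2 units. In all, 7 members had negative and 3 had positive differences. The median over the 10 was -0.049, beside -0.049 over all named genes, of which 60.4% were negative. Adjusted p-values of the members ran from 0.639 to 0.987. At an unadjusted p under 0.05 in limma there was 1 member (Prelp, lower in infrarenal aorta), where 7.56% of all probes were called (4.51% lower and 3.05% higher). The same sign in all 5 pools was seen for 1 member, against 9.15% of named genes. The arrays of the regions overlapped for all 10 members, while 1.26% of named genes had regions that did not overlap.

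**Figure D1:**
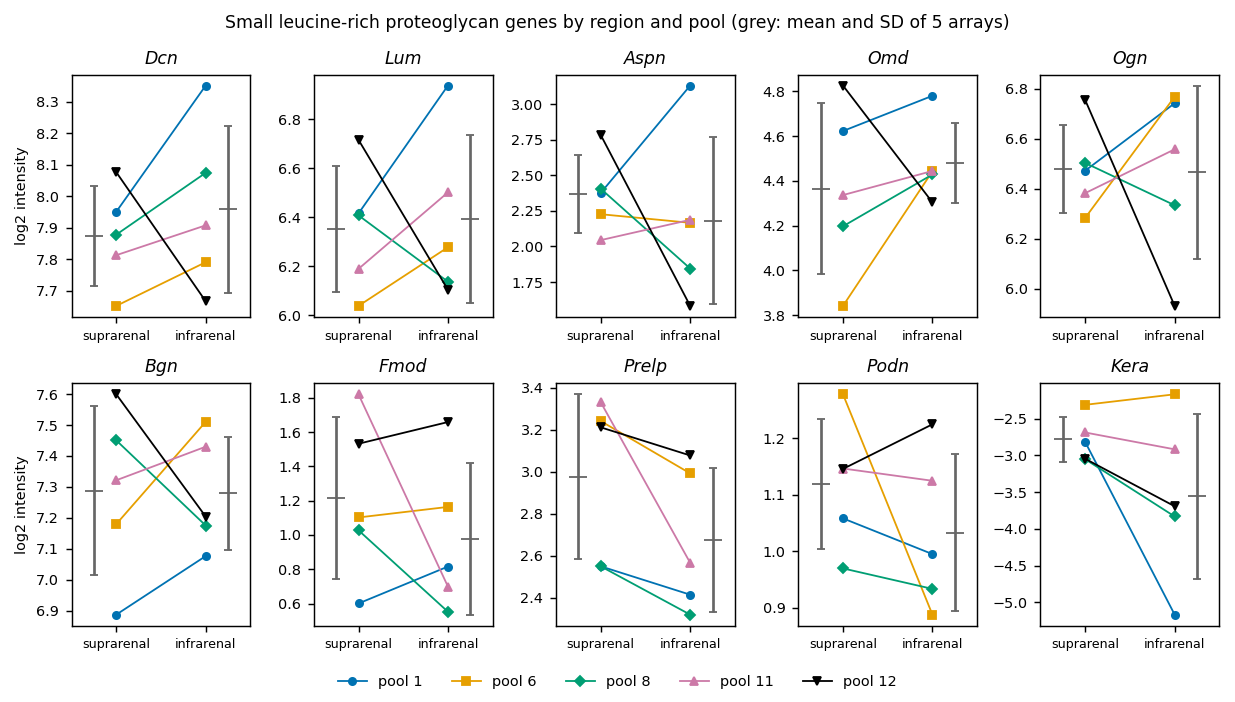
Each panel plots the log2 intensity (vertical axis) of a gene in the suprarenal and infrarenal arrays, with lines joining the arrays of a pool and grey bars for the mean and SD of 5 arrays. Pool 12 (black) runs against most other pools for Dcn, Lum, Omd and Ogn, while Prelp is lower in infrarenal aorta in all 5 pools.

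Decorin ties collagen fibrils together and holds TGF-beta in the matrix. Dcn read 8.35, 7.79, 8.07, 7.91 and 7.67 log2 units in infrarenal aorta of pools 1, 6, 8, 11 and 12. In suprarenal aorta of the same pools it read 7.95, 7.65, 7.88, 7.81 and 8.08. The infrarenal array was the higher in 4 of 5 pools, and pool 12 had the opposite order. The difference was 0.084 ± 0.116 (SE) log2 units, or 1.06-fold with a 95% interval of 0.881 to 1.28 (limma adjusted p = 0.835). Without pool 12 it was 0.21 ± 0.09 (SE), again without passing (limma adjusted p = 0.466). A regional change larger than 1.28-fold lies outside the interval drawn on all arrays. Without pool 12 the estimate was larger, and its interval is not given here.

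Biglycan, the closest relative of decorin, is a lipoprotein-binding proteoglycan of the artery wall. Bgn read 7.08, 7.51, 7.18, 7.43 and 7.20 in infrarenal and 6.89, 7.18, 7.45, 7.32 and 7.60 in suprarenal aorta of pools 1, 6, 8, 11 and 12. Both arrays of pool 1 were the lowest of their region. The difference was -0.0084 ± 0.118 (SE), with 3 pools higher and 2 lower in infrarenal aorta. The fold was 0.994, with a 95% interval of 0.823 to 1.20 (limma adjusted p = 0.987). Without pool 12 the difference was 0.088.

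Asporin has an aspartate-rich start, binds collagen and inhibits TGF-beta. Aspn read 3.13, 2.17, 1.84, 2.19 and 1.58 in infrarenal and 2.38, 2.23, 2.41, 2.04 and 2.78 in suprarenal aorta of pools 1, 6, 8, 11 and 12. It had the widest range of the 9 members that were not among the dimmest 30% of probes, 2.92-fold from the infrarenal array of pool 12 to that of pool 1. The difference by pool ran from 0.75 in pool 1 to -1.20 in pool 12, and averaged -0.19 ± 0.25 (SE; limma adjusted p = 0.827). Without pool 12 it turned to 0.069.

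Lumican regulates collagen fibril assembly and is known for its part in corneal transparency. Lum read 6.94, 6.28, 6.14, 6.50 and 6.10 in infrarenal and 6.42, 6.04, 6.41, 6.19 and 6.72 in suprarenal aorta of pools 1, 6, 8, 11 and 12. The highest array was the infrarenal array of pool 1, and the next highest was the suprarenal array of pool 12. The difference was 0.038 ± 0.161 (SE), higher in infrarenal aorta in 3 of 5 pools (limma adjusted p = 0.954). Without pool 12 it was 0.20 ± 0.13 (SE), and without pool 1, 6 or 11 its sign was negative.

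Osteomodulin, also called osteoadherin, is a keratan sulphate proteoglycan first known from bone. Omd read 4.78, 4.44, 4.43, 4.44 and 4.30 in infrarenal and 4.62, 3.84, 4.20, 4.34 and 4.83 in suprarenal aorta of pools 1, 6, 8, 11 and 12. The infrarenal arrays of pools 6, 8 and 11 were nearly the same, and the SD was 0.18 in infrarenal and 0.38 in suprarenal aorta. The difference was 0.12 ± 0.14 (SE), positive in 4 of 5 pools (limma adjusted p = 0.818). Without pool 12 it was 0.27 ± 0.10 (SE; limma adjusted p = 0.432), and without pool 6 it was -0.0064.

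Osteoglycin, or mimecan, binds collagen and is abundant in the artery wall. Ogn read 6.74, 6.77, 6.33, 6.56 and 5.93 in infrarenal and 6.47, 6.28, 6.50, 6.38 and 6.75 in suprarenal aorta of pools 1, 6, 8, 11 and 12. The infrarenal array of pool 12 was the lowest of all 10. The difference was -0.013 ± 0.174 (SE), and 0.19 ± 0.12 (SE) without pool 12. Neither value passed (limma adjusted p = 0.987 and 0.571).

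Fibromodulin and PRELP are neighbours in the genome and in class. Fibromodulin binds collagen I at the site also used by lumican, and PRELP anchors basement membranes to connective tissue by way of heparan sulphate. Prelp read 2.42, 2.99, 2.32, 2.57 and 3.08 in infrarenal and 2.55, 3.24, 2.55, 3.33 and 3.21 in suprarenal aorta of pools 1, 6, 8, 11 and 12. Every pool had the lower value below the kidneys, but by amounts from -0.13 to -0.76, the largest in pool 11. The fold was 0.811, with a 95% interval of 0.681 to 0.966, and the unadjusted p of limma was 0.0247. Of all probes, 4.51% were lower in infrarenal aorta at this level, and of named genes 6.23% were lower in all 5 pools. After adjustment over all probes p was 0.639. Without pool 12 the difference was -0.34 ± 0.12 (SE; limma adjusted p = 0.413), and without pool 11 it was -0.19 ± 0.09 (SE; limma adjusted p = 0.763).

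Fmod read 0.82, 1.16, 0.55, 0.70 and 1.66 in infrarenal and 0.60, 1.10, 1.03, 1.82 and 1.53 in suprarenal aorta of pools 1, 6, 8, 11 and 12. Pools 8 and 11 were lower in infrarenal aorta, and the other 3 pools were slightly higher. The difference was -0.24 ± 0.20 (SE; limma adjusted p = 0.729). It rested on pool 11, where it was -1.12, and without that pool it was -0.018. Without pool 12 it was -0.33.

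Podocan is a negative regulator of smooth muscle growth in the artery wall. Podn read 0.995, 0.89, 0.93, 1.12 and 1.22 in infrarenal and 1.06, 1.28, 0.97, 1.15 and 1.15 in suprarenal aorta of pools 1, 6, 8, 11 and 12. It varied least of the 10 members, over a range of 1.31-fold. The difference was -0.086 ± 0.101 (SE), set mainly by -0.39 in pool 6 (limma adjusted p = 0.802). Without pool 6 it was -0.011, and without pool 12 it was -0.13.

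Keratocan is chiefly a protein of the cornea. Kera was the only member among the dimmest 30% of probes, with intensities between 0.0245 and 0.222 on a scale where the array median is near 1. In log2 units it read -5.17, -2.17, -3.83, -2.92 and -3.69 in infrarenal and -2.82, -2.31, -3.05, -2.69 and -3.05 in suprarenal aorta of pools 1, 6, 8, 11 and 12. The value of -5.17 is the floor to which lower intensities were raised, so the pool 1 difference depends on that floor. The difference over pools was -0.77 ± 0.44 (SE; limma adjusted p = 0.656), and -0.80 without pool 12. With an offset in place of the floor it was -0.17.

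**Figure D2:**
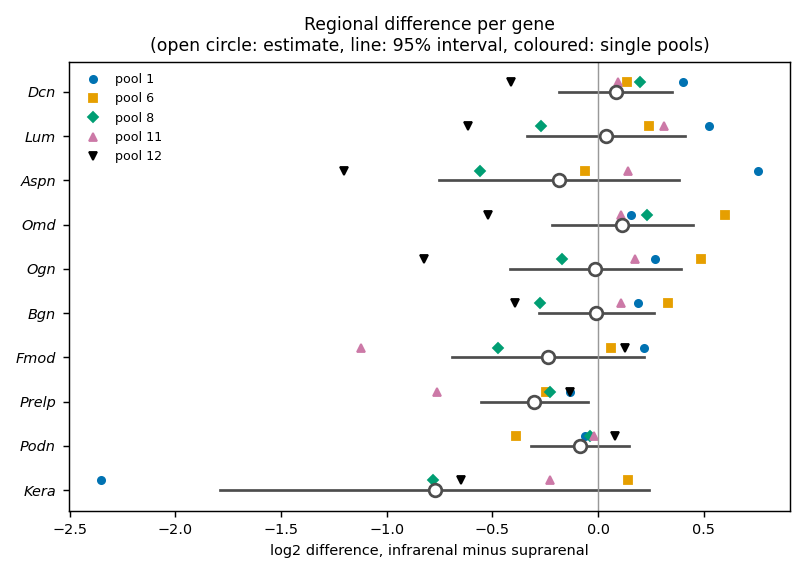
For each gene the open circle and line give the log2 difference, infrarenal minus suprarenal (horizontal axis), with its 95% interval, and the coloured marks give the 5 pools. The interval of Prelp, -0.55 to -0.050, is the only one that leaves out 0 before adjustment, and no gene passed after it.

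The sign of the family's median turned on pool 12. The median over members was 0.20, 0.14, -0.25, 0.10 and -0.47 in pools 1, 6, 8, 11 and 12, beside medians over all named genes between -0.10 and 0.026. In pools 1 and 6, 7 of 10 members were higher in infrarenal aorta, in pool 11 it was 6, and in pools 8 and 12 it was 2. Without pool 12 the median of the fitted differences was 0.079, against -0.037 over all named genes. Without it, 2 members, Prelp and Omd, had an unadjusted p under 0.05 in limma, where 10.9% of all probes did in the same fit, and none passed after adjustment.

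The members did not vary as 1 block from array to array. Dcn, Lum, Aspn, Omd and Ogn were high and low on much the same arrays, and Fmod and Prelp followed another pattern. These groups were formed after the values were seen. On the infrarenal array of pool 1 the first 5 genes lay 0.44, 0.57, 0.86, 0.36 and 0.27 log2 units above their means, while Fmod and Prelp lay at -0.28 and -0.41. On the infrarenal array of pool 12 the same 5 lay at -0.25, -0.27, -0.69, -0.12 and -0.54, with Fmod and Prelp at 0.56 and 0.25. On the suprarenal array of pool 12 all 7 lay above their means. RNA input, infrarenal then suprarenal, was 0.44 and 0.54 µg in pool 1 and 0.51 and 0.35 µg in pool 12. In pools 6, 8 and 11 it was 0.35 and 0.35, 0.34 and 0.35, and 0.35 and 0.47 µg. With RNA input as a covariate, the SE of the difference went from 0.161 to 0.103 for Lum and from 0.245 to 0.134 for Aspn. For Fmod it went from 0.197 to 0.185. The part of RNA input in these levels was not tested.

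**Figure D3:**
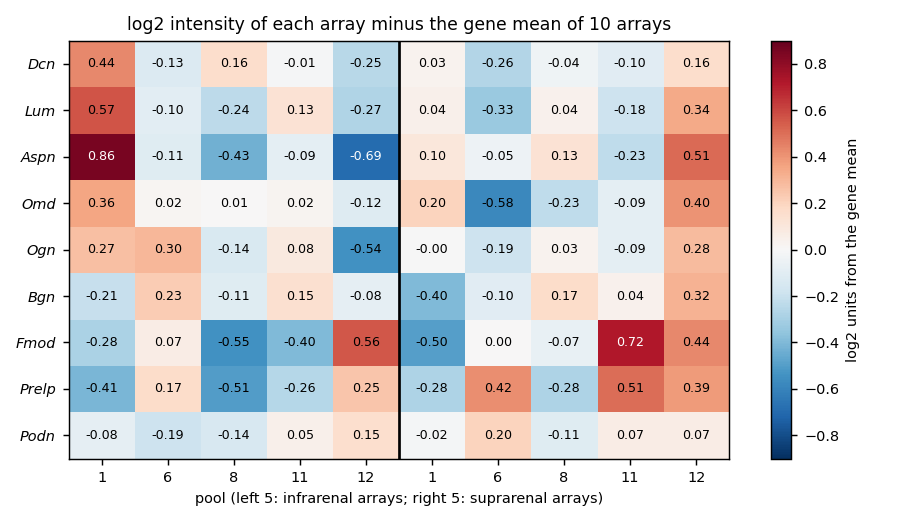
Each cell gives the log2 intensity of a gene (rows) on an array (columns, by pool, infrarenal at left) minus the mean of that gene over 10 arrays. Red cells for Dcn, Lum, Aspn, Omd and Ogn gather on the infrarenal array of pool 1 and the suprarenal array of pool 12, while Fmod and Prelp are high on both arrays of pool 12 and on suprarenal array 11.

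Among the 10 pairs of Dcn, Lum, Aspn, Omd and Ogn, Pearson's r over the 10 arrays ran from 0.55 (Aspn and Omd) to 0.89 (Lum and Aspn), with a median of 0.76. Spearman's rho ran from 0.48 to 0.84. The arrays share pools, scaling and tissue mix, and are not 10 independent samples, so r is given as a description with no p. With the 2 arrays farthest from the median of the first gene left out of each pair, the median was 0.59 and the lowest 0.41. All 10 pairs also had a positive r with any single pool left out, and with the region means removed, where the median was 0.78. The genes of this group come from chromosome 10 (Dcn and Lum, r = 0.82) and chromosome 13 (Aspn, Omd and Ogn, r between 0.55 and 0.78). The highest r, of Lum with Aspn, joined the chromosomes. Whether likeness follows the gene neighbourhoods was not tested.

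Fmod and Prelp had an r of 0.87 and a rho of 0.82. The r was 0.84 without the 2 arrays farthest from the Fmod median, between 0.82 and 0.95 with any single pool left out, and 0.86 with the region means removed. This pair, too, was picked on these same arrays. All 10 pairs of Fmod or Prelp with the 5 other genes had a negative r, from -0.61 (Dcn and Prelp) to -0.13 (Fmod and Omd). That opposition was weaker without pool 1, where 3 of the 10 were positive, and without the 2 farthest arrays, where 4 were. Podn had an r of 0.63 with Prelp and 0.48 with Fmod, and between -0.54 and -0.20 with the 5 genes of the first group. Bgn had no r above 0.43 with any member, although it is the closest relative of Dcn, with which r was -0.15. Without pool 1, whose arrays were both low for Bgn, its median r with the other 8 members was 0.53 in place of 0.061, and without pool 12 it was -0.20, with 3 of 8 positive.

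**Figure D4:**
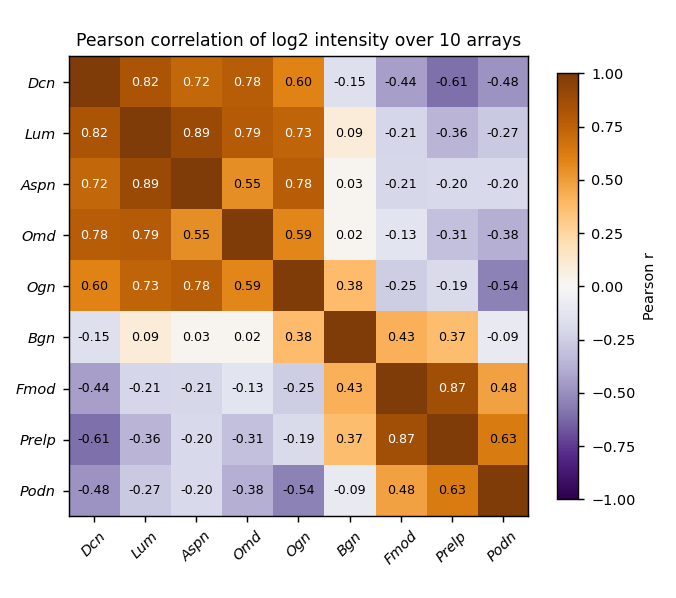
The matrix gives Pearson's r of log2 intensity over 10 arrays for each pair of the 9 members not among the dimmest 30% of probes. The orange block of Dcn, Lum, Aspn, Omd and Ogn (0.55 to 0.89) and the pair Fmod and Prelp (0.87) stand beside Bgn, which has low values with all others.

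Many other genes matched these patterns as well as the members did. Among 13955 other named genes searched, the nearest to Dcn were Meak7 (r = 0.94), 4930478P22Rik (0.94) and Sfrp4 (0.93), the last a secreted Wnt inhibitor. Lum ranked 98, Omd 200, Aspn 385 and Ogn 1018 for likeness to Dcn. The nearest to Lum were Ddb2 (0.94), Ctsk (0.94), which encodes the collagen-degrading protease cathepsin K, and Trim7 (0.94), and Aspn ranked 16. The nearest to Aspn were Ints12 (0.97), Rbm18 (0.96) and Stx7 (0.95). For Omd they were 4930503L19Rik (0.98), 4930412O13Rik (0.96) and Limd1 (0.96), and for Ogn they were Taf1b (0.97), Epha4 (0.94) and Tipin (0.93). On chromosome 13, Omd ranked 1708 for Aspn and 991 for Ogn, and Aspn ranked 1215 for Omd.

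For Prelp the nearest were Lrch4 (0.97), Gaa (0.96), the lysosomal alpha-glucosidase, and Camkk2 (0.94), with Fmod at rank 39. For Fmod they were Grin1os (0.95), Ephb3 (0.94) and Sh3bp1 (0.93), with Prelp at rank 25. For Bgn they were Krt86 (0.97), Trim47 (0.96) and Zfp942 (0.96), and for Podn they were Cox4i2 (0.91), Fut2 (0.90) and Ascl3 (0.89). With 10 arrays and this many genes, such values say how alike the profiles are and no more. None of the genes named here passed the regional test in limma.

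The more distant relatives of the family were measured for 5 of 8 listed genes (Epyc, Optc, Nyx, Chad and Podnl1). None passed, with 2 higher and 3 lower in infrarenal aorta and a median of -0.12. Nyx, which encodes nyctalopin of the retina, differed by -0.22 ± 0.10 (SE) and Optc, opticin of the eye, by -0.18 ± 0.11 (SE).

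The enzymes that build the sulphated chains showed no regional call either. Of 20 chondroitin and dermatan sulphate genes measured, 0 passed, with 9 positive and 11 negative and a median of -0.022. Csgalnact2, which starts the chondroitin chain, differed by -0.17 ± 0.12 (SE) and Fam20b, a xylose kinase of the linkage region, by -0.20 ± 0.15 (SE). Over the 10 arrays the mean of this list had an r of 0.87 with Bgn and -0.47 with Dcn. Bgn was not like this list alone. Its r was also 0.87 with the protease list and 0.78 with the signalling partners, both described below, and -0.79 with Schwann cell markers. As for Bgn, both arrays of pool 1 were the lowest of their region for this list, at 1.22 and 1.25. No r without pool 1 was taken for it. Of 11 keratan sulphate genes, 10 were negative with a median of -0.12, and 0 passed. B4galt1, a galactosyltransferase, differed by -0.22 ± 0.07 (SE) and Chst2, a sulphotransferase, by -0.20 ± 0.07 (SE), both lower in 5 of 5 pools.

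No collagen gene passed the regional test. Of 14 fibrillar, fibril-associated and type VI collagen genes, 4 were positive, 10 negative and 0 passed, with a median of -0.046. Col5a3 differed by -0.28 ± 0.15 (SE) and Col6a3 by -0.15 ± 0.09 (SE). Across arrays, the collagen mean had an r of 0.83 with Fmod and 0.73 with Prelp, but of -0.59 with Dcn, -0.53 with Lum and -0.59 with Aspn. These r, like all others given here for members with list means, were picked from 171 correlations of 9 members with 19 gene lists. They were picked after the values were seen, and share the scaling of the arrays.

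Among 26 signalling partners (ligands bound by the family and receptors it acts on), 10 were positive, 16 negative and 0 passed, with a median of -0.064. Cd14, the Toll-like receptor co-receptor used by biglycan, differed by -0.41 ± 0.11 (SE), and Tgfb1, the ligand held by decorin, by -0.17 ± 0.07 (SE), both lower in 5 of 5 pools. Macrophages are a known source of Cd14. All 7 measured macrophage genes had negative differences, with a median of -0.28, and none was at the floor on any array. Among them C1qa, C1qb and C1qc, complement genes made by macrophages and named after their values were seen, had an unadjusted p under 0.05 in limma, and 0 passed after adjustment. The part of macrophage content in the Cd14 value was not tested. Of 16 genes listed as proteases for proteins of this kind, 8 were positive, 8 negative and 0 passed, with a median of -0.020. The list includes Pcolce, which encodes an enhancer of a procollagen protease and not a protease. Mmp3, stromelysin, differed by -0.23 ± 0.12 (SE) and Adamts5, an aggrecanase, by -0.22 ± 0.13 (SE). Across arrays the mean of the protease list, Pcolce included, had an r of 0.87 with Bgn, like the chain-synthesis mean. Of 20 large and cell-surface proteoglycans, 6 were positive, 14 negative and 0 passed, with a median of -0.10. Gpc3, a glypican, differed by -0.36 ± 0.13 (SE) and Esm1, or endocan, by -0.35 ± 0.16 (SE).

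Without pool 12 none of these 7 lists held a gene that passed, and their medians lay between -0.12 (keratan sulphate) and -0.013 (proteases). All 14 related genes named above stayed negative. Gpc3 at -0.48, Col5a3 at -0.38 and Tgfb1 at -0.20 were farther from 0 than with all pools. B4galt1, at -0.22, hardly moved. The other values were nearer to 0, at -0.35 for Cd14, -0.30 for Esm1, -0.21 for Nyx and -0.17 for Chst2. Likewise, values were -0.12 for Optc, -0.12 for Mmp3, -0.11 for Fam20b, -0.10 for Col6a3, -0.087 for Adamts5 and -0.077 for Csgalnact2. The macrophage median was then -0.27, with 7 of 7 negative.

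**Figure D5:**
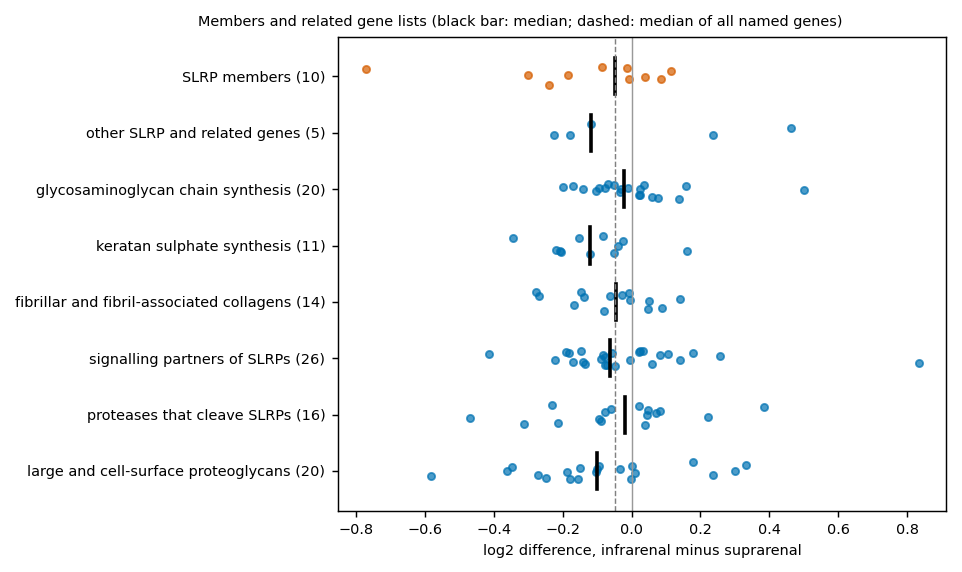
Points give the log2 difference, infrarenal minus suprarenal (horizontal axis), of each gene in the family and in 7 related lists, with black bars for list medians and a dashed line at the median of all named genes, -0.049. The members' median of -0.049 lies on that line, and the list medians lie between -0.12 and -0.020.

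Markers of the other cells in and around the vessel also differed between arrays. Adventitial fibroblast markers (11 of 12 measured) had a mean level between 5.42 and 5.53 in infrarenal and between 5.36 and 5.68 in suprarenal aorta. Skeletal muscle markers (11 of 12) ran from 1.13 to 3.55 and from 0.43 to 4.31, brown adipocyte markers (9 of 9) from 3.22 to 5.60 and from 3.21 to 5.68, and sympathetic neuron markers (11 of 12) from 0.35 to 2.20 and from 0.068 to 3.26. General adipocyte markers (7 of 9) ran from 5.05 to 5.76 and from 5.03 to 6.39, and Schwann cell markers (5 of 8) from 2.14 to 3.24 and from 2.29 to 3.47. Endothelial markers (7 of 7) lay between 2.91 and 3.55 and between 3.13 and 3.48, and macrophage markers (7 of 9) between 3.02 and 3.16 and between 3.16 and 3.62. Tendon, cartilage and bone markers (8 of 10) were low, with suprarenal means between -0.59 and -0.050, as were mesothelial markers (8 of 8), with infrarenal means between -1.39 and -0.94.

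On the infrarenal array of pool 1, where Dcn, Lum, Aspn and Omd were high, brown adipocyte markers were the highest of that region, at 5.60, and skeletal muscle markers the lowest, at 1.13. On the suprarenal array of pool 12, where Omd, Lum and Aspn were also high, brown adipocyte markers were the lowest, at 3.21, and skeletal muscle markers the highest, at 4.31. Lum, Aspn and Omd were high on both arrays, and fat and muscle markers went opposite ways between them. Adventitial fibroblast markers, at 5.46 and 5.60 on those arrays, had an r between -0.36 and 0.14 with the 5 genes over all arrays. Posterior Hox genes had an r of 0.62 with Dcn, 0.61 with Lum, 0.50 with Aspn, 0.66 with Omd and 0.69 with Ogn, and of -0.38 with Prelp and -0.52 with Fmod. Endothelial markers had an r of 0.58 with Dcn, 0.41 with Lum, 0.58 with Aspn, 0.22 with Omd and 0.60 with Ogn, and of -0.75 with Fmod and -0.57 with Prelp. For skeletal muscle markers, in the same order of genes, r was 0.34, 0.31, 0.10, 0.48 and 0.32, then -0.34 and -0.41. For brown adipocyte markers it was 0.068, -0.091, 0.099, -0.28 and -0.33, then -0.076 and -0.14. Bgn had an r of 0.74 with smooth muscle, -0.79 with Schwann cell and -0.70 with brown adipocyte markers. The part of tissue mix in these values was not tested.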

How the data were processed

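RNA of 5 infrarenal and 5 suprarenal pools was amplified from 0.34 to 0.54 µg and stained with Cy5-streptavidin, per the labels' protocols. The deposited values are linear intensities with a median near 1 on each array. Of the scanner, the background correction and the way of scaling, the sources used here say nothing. Intensities under 0.0278 (percentile 1 of positive values) were raised to it (5328 values, -5.17 in log2) and log2 was taken. The 1968 missing values stayed missing, none of them in a member. A probe needed 3 values per region, which left 36061 of 36227. Names came from the platform annotation, updated by Entrez identifier with RefSeq (GRCm38.p6): 21615 probes had a single symbol, 21487 of them matched, 681 had several and 13931 none. The probe of highest mean stood for a gene.

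The regional test was that of limma 3.58.1 under R 4.3.3 (mean-variance trend, pool as a block, two-sided, Benjamini-Hochberg over all probes, threshold 0.05). Pools pair the arrays because both parts come from the same animals. As a check of this pairing, the r between both arrays of a pool, each less its region mean, was 0.12 in pool 1, -0.00055 in pool 6, -0.0086 in pool 8, -0.31 in pool 11 and -0.24 in pool 12. These values show no clear likeness between the arrays of a pool, so the pairing rests on the labels. The p-values set a regional difference against the spread of that difference between pools, as moderated by limma. The fit was checked on 35714 simulated probes: among 50 changed by 0.5 log2 units it found 16%, at 1 unit 66%, at 2 units 78% and at 3 units 80%. There were 4 false calls. All sizes of change were set at once, and the noise was drawn independently for each probe, unlike on real arrays. These shares therefore do not say what the real fit could find.

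The members and gene lists were chosen with earlier results of these data known. From each related list the text names the 2 genes of smallest p, and for each member the 3 genes of highest r. The fit was repeated with quantile normalization, with 0.2701 (percentile 25) added in place of the floor, with the dimmest 30% left out, no block, no trend, RNA input, array weights, each pool left out and probes averaged. Those for correlations, and the related lists without pool 12, were chosen after seeing the data.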

Additional observations from a re-analysis of the deposited data

Results flagged for a closer look

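Among 58 sets of 5 arrays of a region (20 for the members, 38 for means of gene lists), in 4 a single array lay apart from the rest, and chance alone would flag about 2.9. None of the 4 was a member of the family. Endothelial markers read 3.13 on the suprarenal array of pool 11, against 3.43 to 3.48 on the other suprarenal arrays. Fmod and Prelp were at their highest on that array. Macrophage markers read 3.02 on the infrarenal array of pool 6, against 3.13 to 3.16. Brown adipocyte markers read 3.21 on the suprarenal array of pool 12, against 5.13 to 5.68, and Bgn and Omd were at their highest there. Posterior Hox genes read -0.19 on the infrarenal array of pool 12, against 0.48 to 0.73, where Dcn, Lum, Aspn, Omd and Ogn were lowest of the infrarenal arrays.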

How the results depend on the processing

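No member passed under any of the 13 alternatives. Adjusted p-values lay between 0.413 and 0.996. Over all probes 1 was called after quantile normalization and 0 otherwise (0 with each pool left out). The fit with no replicate block called 0 probes and 0 members, and the median of the members was -0.049, so the block changed no call. That median was 0.046 after quantile normalization, which moved the median of all named genes from -0.049 to 0.0015, and lay between -0.12 and 0.079 with a pool left out. Prelp, Fmod, Podn, Kera and Dcn kept their sign under every alternative run (Kera in 12, as the filter on dim probes removes it). Bgn and Ogn turned positive after quantile normalization (0.14 for each), with array weights and without pool 8 or 12. Lum turned negative with RNA input as a covariate and without pool 1, 6 or 11, Aspn positive without pool 12 and Omd negative without pool 6. Prelp lost its unadjusted p under 0.05 after quantile normalization, with no block, with no trend and without pool 11. With 5 pools the median half-width of a member's 95% interval was 0.35 log2 units. Each gene rests on 1 probe, whose place in the transcript the labels do not state.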
